A study of Mus musculus with 12 samples.

Results

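The genes described here encode SR proteins, the serine- and arginine-rich splicing factors Srsf1, Srsf2, Srsf3, Srsf4, Srsf5, Srsf6, Srsf7, Srsf9, Srsf10 and Srsf11. They were taken by name, 10 genes of the 38215 in the gene count table, together with all 202 of their exon bins out of 354841 bins in the exon count files. An exon bin is a stretch of a gene that is covered by the same set of annotated transcripts, and its usage is given as the percent of all bin counts of its gene in the same library. The cells were RAW264.7, an established line of BALB/c mouse macrophages. Cells received a pool of non-targeting control siRNA or a pool of siRNAs against SF3a1, a subunit of the SF3a complex that helps the U2 snRNP to recognize the branch site of an intron. After 24 hours they were exposed for 4 hours to no LPS or to 20 ng/ml LPS, the bacterial lipopolysaccharide that signals through TLR4. The 12 RNAseq libraries therefore fell into 4 groups of 3, each siRNA being combined with each LPS setting. All 4 groups carried a siRNA pool, and no library came from cells without siRNA.

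The libraries held between 12746019 and 41091887 reads on genes. Replicate 1 of every group had been sequenced in 2 runs and was the deepest of its group, and replicates 2 and 3 had 1 run each. Exon bins were analysed in 11 libraries, because 1 library of the LPS-exposed control cells, replicate 3, was not used here for bins. The macrophage label held in the data. All 8 macrophage markers passed the filter on low counts, with Lyz2, the gene of lysozyme, the most abundant at 4979 to 9895 CPM, the reads per 1e6 library reads. The summed markers of T cells, B cells, fibroblasts and epithelial cells were each at most 0.363 CPM in any library, and Cd8a was at 0 in all 12. The siRNA lowered its target. Sf3a1 was at 172.9, 215.9 and 185.3 CPM with control siRNA and at 27.12, 27.53 and 32.14 CPM with SF3a1 siRNA without LPS, a log2 fold change of -2.73 (SE 0.204, edgeR adjusted p = 1.14e-05). With LPS it went from 150, 194.4 and 157 CPM to 30.28, 26.72 and 45.05 CPM, a log2 fold change of -2.30 (SE 0.2, edgeR adjusted p = 1.47e-05).

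SR proteins bind exonic enhancer sequences in pre-mRNA through RNA recognition motifs and recruit the splicing machinery through a domain of arginine-serine repeats, which kinases of the SRPK and CLK families phosphorylate. Most SR protein genes limit their own expression: their pre-mRNA contains a highly conserved exon or intron that, when it is included or retained, places a premature stop codon in the message. Such a poison exon exposes the mRNA to nonsense-mediated decay (NMD), the surveillance pathway that degrades messages with a stop codon upstream of an exon junction. The fraction of reads on such a bin is thus a balance between how often the bin is spliced in and how quickly the resulting RNA is removed.

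The sequences that follow belong to exons and bins described below and show their annotated stop codons and splice sites. All are from GENCODE vM21 transcripts, genome build mm10, plus strand, 5′ to 3′. In the poison exons of Srsf4 and Srsf6, shown up to the stop, capitals mark the stop codon of the annotated NMD transcript. In the intronic bins capitals mark the donor GT and the acceptor AG. The first Srsf4 poison exon is at chr4:131884276-131884390 up to its stop, and Srsf4 bin 5, the stretch just before the second poison exon, is at chr4:131885208-131885308. Srsf4 bin 7, the intron between the second and the third poison exon, is shown by its first 60 bases at chr4:131885493-131885552 and its last 60 bases at chr4:131886047-131886106. The Srsf6 poison exon up to its stop is at chr2:162932815-162932966.
Srsf4 poison exon to its stop: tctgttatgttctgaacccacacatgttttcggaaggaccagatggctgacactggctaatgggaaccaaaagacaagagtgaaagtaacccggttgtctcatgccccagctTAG
Srsf4 bin 5: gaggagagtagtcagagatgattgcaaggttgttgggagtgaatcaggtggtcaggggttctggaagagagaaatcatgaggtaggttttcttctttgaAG
Srsf4 bin 7, first 60 bases: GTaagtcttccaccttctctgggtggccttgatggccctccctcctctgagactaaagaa
Srsf4 bin 7, last 60 bases: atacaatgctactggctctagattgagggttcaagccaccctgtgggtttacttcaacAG
Srsf6 poison exon to its stop: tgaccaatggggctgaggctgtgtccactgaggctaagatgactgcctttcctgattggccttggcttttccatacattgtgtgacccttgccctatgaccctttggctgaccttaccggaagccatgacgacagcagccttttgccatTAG
The 20 bases before the acceptor AG, where the polypyrimidine tract lies, hold 12 pyrimidines in Srsf4 bin 5 and 13 in Srsf4 bin 7.

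All 10 genes were expressed and passed the filter on low counts. Because longer genes collect more reads, levels were compared between genes per kilobase of exon in the control libraries without LPS (mean ± SD, n = 3). The length was that of the merged exons of all annotated protein-coding transcripts, which need not be the length expressed, so the order is approximate. This holds above all for Srsf9, whose rebuilt coding bin 6 held reads at 0.0055 of the mean coding density. Srsf2, also called SC35, was the highest at 230.8 ± 19.9 CPM per kilobase. It was followed by Srsf9 at 145.2 ± 20.2, Srsf7 at 115.9 ± 29.2 and Srsf6 at 101.4 ± 4.1 CPM per kilobase. Srsf1, the classical SF2/ASF, stood at 77.02 ± 2.33, Srsf3, the smallest family member, at 70.86 ± 9.50 and Srsf5 at 70.05 ± 8.79 CPM per kilobase. Srsf11 had 50.38 ± 5.81, Srsf4 38.29 ± 3.62 and Srsf10 10.13 ± 0.61 CPM per kilobase. Neighbours in this order from Srsf9 down to Srsf6, and from Srsf1 down to Srsf5, differed by less than the sum of their SDs. The other neighbours differed by more.

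Of the 10 members, 5 had less RNA in SF3a1 siRNA cells than in control cells without LPS: Srsf1, Srsf2, Srsf4, Srsf6 and Srsf10. The fitted loss was modest, between -0.32 and -0.47 on the log2 scale. In this fit 0 of the 10 were called higher, while Srsf11 was called higher by other fits given below. Of all 14983 genes tested in this comparison 33.8% were called at a false discovery rate of 0.1, 20.1% lower and 13.7% higher. The median log2 fold change was -0.325 over the 10 members and -0.0203 over all genes tested. In bulk RNA, fewer cells of a type and less RNA per cell cannot be told apart.

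Srsf2 was at 395.9, 468.3 and 450.8 CPM in the 3 control libraries and at 292.3, 350.9 and 307.5 CPM in the 3 SF3a1 siRNA libraries. Every SF3a1 siRNA library lay below every control library, and the log2 fold change was -0.47 (SE 0.147, edgeR adjusted p = 0.0329). For Srsf4, a larger member with a long arginine-serine domain, the control libraries held 83.86, 95.57 and 79.84 CPM and the SF3a1 siRNA libraries 66.54, 62.09 and 68 CPM. The groups did not overlap, with a log2 fold change of -0.40 (SE 0.129, edgeR adjusted p = 0.0364). Srsf10, an SR protein that acts as a splicing repressor when dephosphorylated, fell from 57.75, 56.57 and 63.24 CPM to 47.25, 39.63 and 46.94 CPM. Its log2 fold change was -0.41 (SE 0.136, edgeR adjusted p = 0.0428), again with no overlap.

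Srsf6, also called SRp55, was at 391.7, 367 and 363.9 CPM in control cells and at 292.2, 307.5 and 296.8 CPM with SF3a1 siRNA, a log2 fold change of -0.32 (SE 0.11, edgeR adjusted p = 0.0458). Srsf1 had 417.2, 442.4 and 424.7 CPM in control cells and 343.2, 356.1 and 325.9 CPM with SF3a1 siRNA, a log2 fold change of -0.33 (SE 0.117, edgeR adjusted p = 0.0576). Neither gene overlapped between the groups. With RLE size factors neither was called (adjusted p = 0.106 for Srsf6 and 0.122 for Srsf1). Without the filter on low counts the calls of Srsf1, Srsf4, Srsf6 and Srsf10 were lost (adjusted p = 0.297, 0.168, 0.294 and 0.169), while that of Srsf2 remained. Over all genes tested, the CPM of 25.4% were lower without overlap in this comparison and of 20.2% higher. Srsf7, a zinc-knuckle SR protein, gave values that spread widely with the replicate number: 192.5, 278.8 and 324.2 CPM in replicates 1, 2 and 3 with control siRNA against 144.3, 199.6 and 212.2 CPM with SF3a1 siRNA. Each SF3a1 siRNA library was below the control library of the same number, but the groups overlapped, and the log2 fold change of -0.52 did not pass (SE 0.28, edgeR adjusted p = 0.202). Samples of the same number deviated together, and with the replicate number as a block Srsf7 was called at a log2 fold change of -0.50 (adjusted p = 0.00946). Without the filter on low counts it was also called (-0.54, adjusted p = 0.0561).

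The other 4 members gave no call without LPS. Srsf11, an arginine-serine protein that binds U2AF, was at 147.9, 186.5 and 167.6 CPM in control cells and at 180.9, 218.6 and 197.7 CPM with SF3a1 siRNA, a log2 fold change of 0.25 (edgeR adjusted p = 0.174). The gene was higher in each of the 3 pairs of the same replicate number. It was called higher with the replicate block at 0.25 (adjusted p = 0.0609), by DESeq2 at 0.31 (adjusted p = 0.0329) and with RLE size factors at 0.31 (adjusted p = 0.0823), and the block gave 7 calls of 10 in place of 5. Over all 14983 genes tested the block gave 7053 calls in place of 5069. For Srsf3, Srsf5 and Srsf9 the log2 fold changes were -0.11 (edgeR adjusted p = 0.745), 0.15 (0.595) and -0.03 (0.905). Leaving out replicate 3 of control siRNA without LPS left 0 of the 10 called, and leaving out replicate 2 of that group left only Srsf11, called higher at 0.42 (adjusted p = 0.0654). Without replicate 1 of that group only Srsf2 was called, and leaving out any 1 of the SF3a1 siRNA libraries without LPS left 1 or 2 calls.

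**Figure D1:**
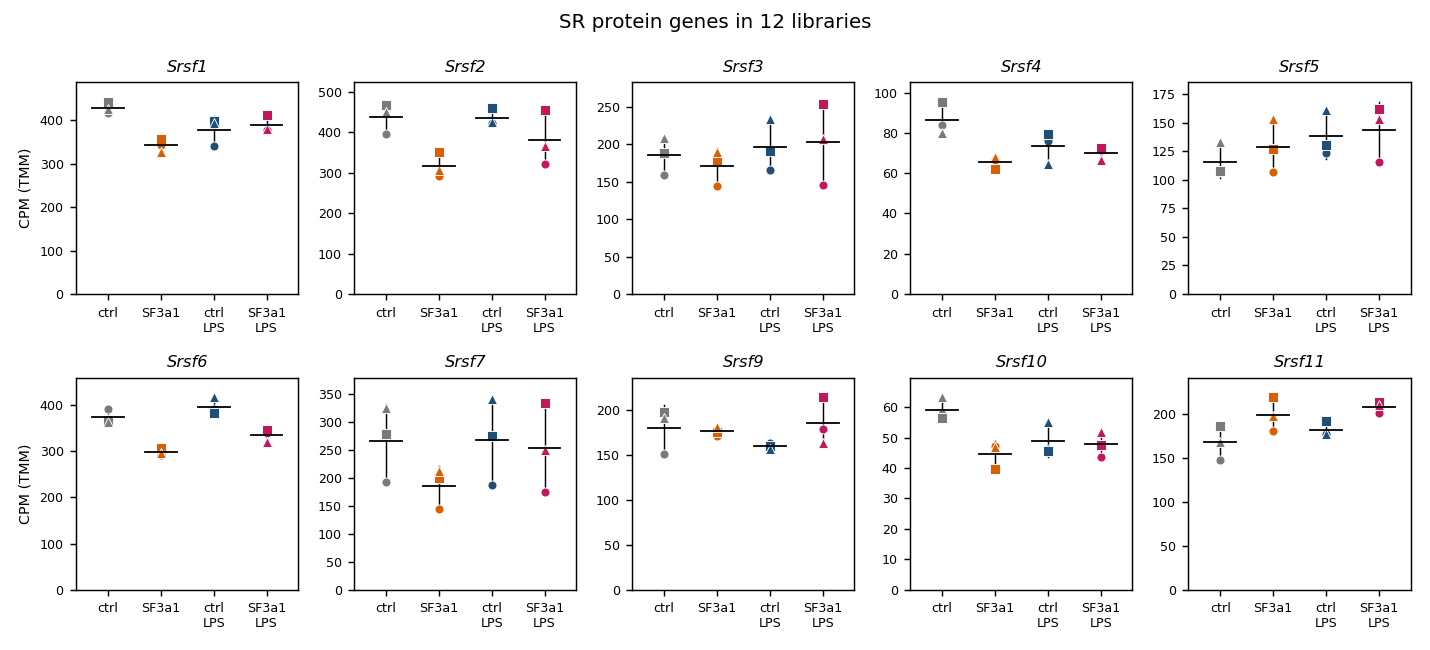
Expression of the 10 SR protein genes in CPM (TMM-scaled, axes from 0) in the 12 libraries. Circles, squares and triangles are replicates 1, 2 and 3, bars are group means and whiskers the SD (n = 3). In Srsf1, Srsf2, Srsf4, Srsf6 and Srsf10 the 3 SF3a1 siRNA libraries without LPS sit below the 3 control libraries, while in Srsf7 the replicate number spreads the points within each group.

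With LPS, 0 of the 10 members were called between SF3a1 and control siRNA by edgeR, 1 had an unadjusted p under 0.05 and DESeq2 called 1. Of all genes tested, 38.8% were called in this comparison. The gene in question was Srsf6, at 390.2, 382.2 and 416.3 CPM in control cells with LPS and at 340, 346.6 and 319.3 CPM in SF3a1 siRNA cells with LPS. These libraries did not overlap, and the log2 fold change was -0.24 (edgeR adjusted p = 0.118). It was called with the replicate block at -0.24 (adjusted p = 0.0661), where the block called 7625 of all genes tested. In the reported fit 20.4% of all genes tested were called lower and 18.4% higher. Srsf11 was the other member without overlap, at 176.6, 191.5 and 177.4 CPM in control cells and 201.1, 213 and 209.9 CPM in SF3a1 siRNA cells with LPS, and its log2 fold change of 0.19 was not called (edgeR adjusted p = 0.285). Over all genes, 21.1% were lower and 18% higher without overlap. Srsf1, Srsf2, Srsf4 and Srsf10 had log2 fold changes of 0.05, -0.20, -0.06 and -0.04 with LPS, and the groups overlapped in each. The median over the 10 members with LPS was 0.00324, against -0.0373 for all genes tested.

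Whether the SF3a1 effect differed with LPS was tested as an interaction. By edgeR and by DESeq2 0 of the 10 members were called, and 1 had an unadjusted p under 0.05 in edgeR, among all genes of which 3.47% were called. That member was Srsf1, whose SF3a1 effect was 0.37 higher on the log2 scale with LPS than without (edgeR adjusted p = 0.35). The loss of the 5 transcripts without LPS and the missing calls with LPS were therefore not shown to differ. LPS itself, in control siRNA cells, gave 0 calls among the 10 members by edgeR and by DESeq2, and 0 had an unadjusted p under 0.05, while 32.1% of all genes tested were called. The fitted LPS effects in control cells ran from -0.27 for Srsf10 to 0.26 for Srsf5. Srsf10 had 57.75, 56.57 and 63.24 CPM without LPS and 46.23, 45.62 and 54.98 CPM with LPS. Srsf1, Srsf4 and Srsf10 were lower with LPS without overlap, 3 of the 10 members, and 0 were higher without overlap, against 23 and 17.2% of all genes tested. For Srsf10 the replicate block called the change at -0.28 (adjusted p = 0.0696), where the block called 6571 of all genes. In the reported fit 18.3% of all genes were called lower and 13.8% higher. In SF3a1 siRNA cells LPS gave 0 calls by edgeR and by DESeq2 and 0 at an unadjusted p under 0.05, against 10.7% of all genes. There the replicate block called Srsf7 higher at 0.43 (adjusted p = 0.0484), where the block called 3115 of all genes. In the reported fit 6.6% of all genes were called higher and 4.06% lower. The LPS comparison in control cells shares its libraries without LPS with the SF3a1 comparison without LPS.

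At the exon level, 1 of the 173 member bins tested was called higher in both SF3a1 comparisons, as were 0.24% of the bins tested in all genes. It was Srsf4 bin 7, the 614-base intron between the second and the third poison exon (chr4:131885493-131886106), which was used more in SF3a1 siRNA cells both without and with LPS. Of the 202 bins, 173 passed the filter on low counts, Srsf4 bins 5 and 7 only through SF3a1 siRNA libraries. Without LPS 2 of these 173 were called, Srsf4 bin 7 higher and Srsf5 bin 23 lower, where 0.624% of the 153624 bins tested in all genes were called, 0.497% higher and 0.128% lower. With LPS 2 were called, Srsf4 bins 5 and 7, both higher, where 0.49% of all bins were called and 0.379% were called higher. At an unadjusted p under 0.05 there were 13 of the 173 member bins without LPS and 8 with LPS, against 5193 and 6128 of the 153624 bins tested in all genes. Usage without overlap between the siRNA groups was seen without LPS in 13 member bins that were higher and 12 that were lower, against 5.6 and 5.15% of all bins tested. With LPS, where control cells had 2 libraries, these numbers were 18 and 25, against 10.8 and 10.4%. As shares of the 173 bins they were 7.51 and 6.94% without LPS and 10.4 and 14.5% with LPS. By gene, the bins with a call were 2 of 15 tested in Srsf4 and 1 of 24 in Srsf5, and the remaining 8 genes had 0.

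The Srsf4 gene lies on the plus strand of chromosome 4 at 131873617 to 131901706. Its first coding intron, between the coding exons that end at 131873870 and start at 131891207, contains 3 annotated poison exons that appear in NMD transcripts and in no protein-coding transcript. They span 131884276 to 131884482, 131885309 to 131885492 and 131886107 to 131886304, and the first carries the TAG stop shown above. Bin 7 took 0.322, 0.0778 and 0.261% of Srsf4 bin counts in the 3 control libraries without LPS, which were 15, 2 and 6 reads. With SF3a1 siRNA it took 0.812, 1.56 and 1.89%, which were 19, 22 and 21 reads. Every SF3a1 siRNA library was above every control library, and the log2 usage change was 2.63 (SE 0.613, edgeR diffSpliceDGE adjusted p = 0.0122). With LPS it took 0.133 and 0% in the 2 control libraries, 5 and 0 reads, and 0.357, 0.98 and 1.4% with SF3a1 siRNA, 10, 14 and 24 reads. That change was fitted at 3.20 (SE 0.833, edgeR diffSpliceDGE adjusted p = 0.0531). The bin was called without LPS with the replicate block (2.50, adjusted p = 0.0122), by the DEXSeq model (2.65, adjusted p = 0.0378) and without replicate 1 of every group (3.35, adjusted p = 0.0023). It was not called when replicate 2 of control siRNA (adjusted p = 0.259) or replicate 3 of SF3a1 siRNA (adjusted p = 0.131) without LPS was left out. In the reported fit the bin passed the filter on low counts only through SF3a1 siRNA libraries, as no control library held enough reads for its depth. Its calls therefore describe a bin that was kept for its high values in those libraries. At a minimum count of 30 the bin did not pass the filter and was not tested in either setting. With LPS it was not called with the block (2.75, adjusted p = 0.16), by the DEXSeq model (3.22, adjusted p = 0.148) or by limma-voom (2.99, adjusted p = 0.596). Leaving out replicate 1 of the control libraries with LPS moved the fitted value to 7.33 and leaving out replicate 2 to 2.69. Each of these fits left 1 control library with LPS and took its spread from the other groups, so no call is read from them. The call was also lost without replicate 2 or 3 of SF3a1 siRNA with LPS (edgeR diffSpliceDGE adjusted p = 0.201 and 0.396).

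Bin 5 of Srsf4, the 101 bases just before the second poison exon, belongs only to an annotated retained-intron transcript. It held 0 and 1 reads in the control libraries with LPS, 0 and 0.0831% of Srsf4 bin counts. With SF3a1 siRNA and LPS it held 10, 8 and 13 reads, 0.357, 0.56 and 0.757%. Only SF3a1 siRNA libraries held enough reads of this bin for their depth to pass the filter on low counts. It was thus tested because it was high there, and the ratio, its interval and the fitted change are descriptions, not support for a difference. The usage summed over libraries was 25.8 times that of the control group, with an exact 95% interval from 4.3 to 1052 that covers counting error only. The fitted log2 usage change was 4.31 (edgeR diffSpliceDGE adjusted p = 0.0839). The call was lost with the replicate block (adjusted p = 0.118), without the filter on low counts (0.216), by limma-voom (0.297) and by the DEXSeq model (0.574). It was also lost without replicate 2 of SF3a1 siRNA with LPS (log2 usage change 4.33, edgeR diffSpliceDGE adjusted p = 0.217). Leaving out replicate 1 or 2 of the control libraries with LPS moved the log2 usage change to 2.64 or 6.79. Leaving out replicate 1 of every group moved it to 2.87. Each of these fits left 1 control library with LPS and took its spread from the other groups, so no call is read from them. At a minimum count of 30, and without replicate 1 or 3 of SF3a1 siRNA with LPS, replicate 1 or 3 of control siRNA without LPS or replicate 1 of SF3a1 siRNA without LPS, the bin no longer passed the filter and was not tested. It remained called with RLE size factors and on leaving out any of the other 3 libraries. Without LPS the groups overlapped, at 0.215, 0 and 0% with control siRNA and 0.171, 0.0711 and 0.541% with SF3a1 siRNA.

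The poison exon bins of Srsf4, Srsf6 and Srsf10 gave no call by diffSpliceDGE in either SF3a1 comparison. Bins of Srsf3, Srsf5, Srsf9 and Srsf11 had no coordinates, so poison exons among them were not identified. Bin 6, the second poison exon of Srsf4 and its poison exon bin of highest mean usage over the 11 libraries, took 1.61, 1.24 and 0.826% with control siRNA and 2.39, 2.99 and 1.8% with SF3a1 siRNA without LPS, without overlap, at a log2 usage change of 0.95 (edgeR diffSpliceDGE adjusted p = 1). Bin 9, in the third poison exon, took 0.902, 0.7 and 0.913% against 1.54, 2.49 and 2.07%, also without overlap, at 1.28 (edgeR diffSpliceDGE adjusted p = 0.51), and the DEXSeq model called it at 1.26 (adjusted p = 0.094). Bin 4, in the first poison exon, took 2.51, 1.17 and 1.22% against 2.09, 1.35 and 1.53%, which overlapped. Bins 4 and 9 were picked for this account after their values had been seen. With LPS bins 4, 6 and 9 overlapped between the siRNAs.

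**Figure D2:**
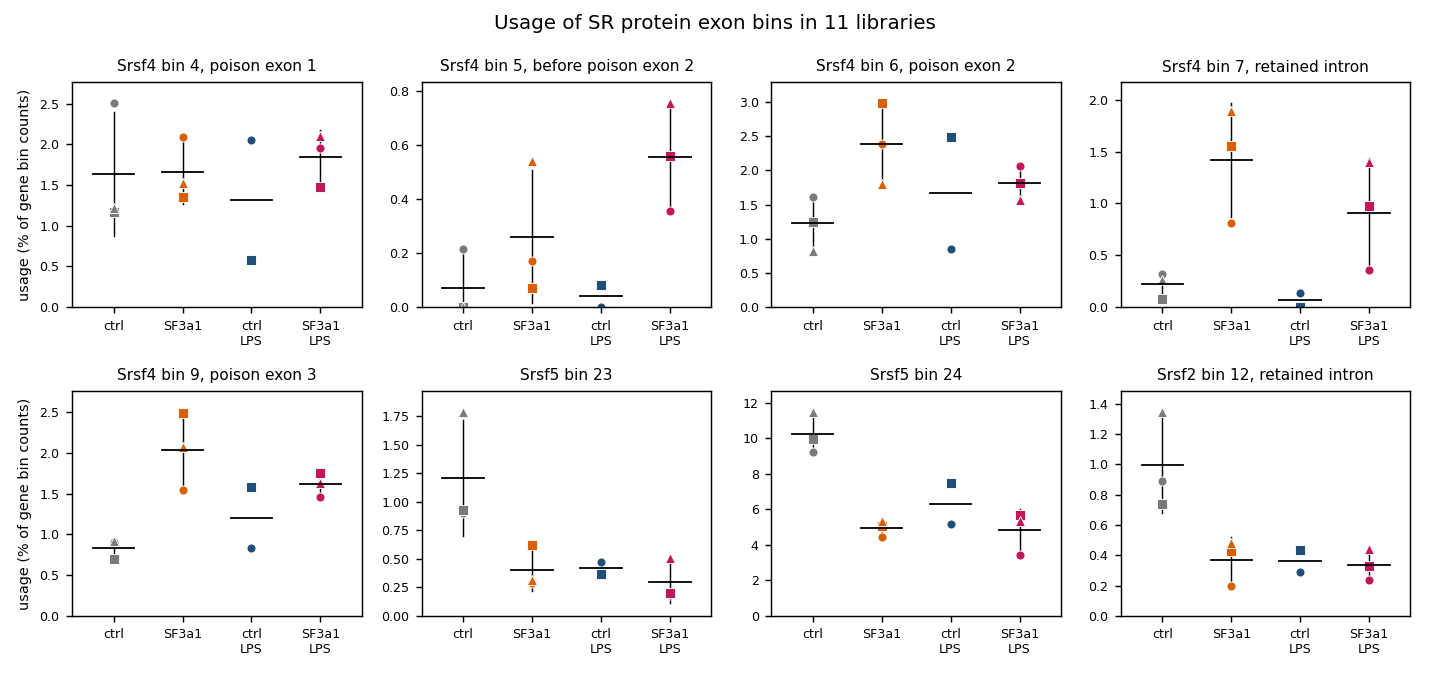
Usage of Srsf4 bins 4, 5, 6, 7 and 9, Srsf5 bins 23 and 24 and Srsf2 bin 12, as percent of the gene's bin counts, in 11 libraries. Circles, squares and triangles are replicates 1, 2 and 3, bars are group means, and whiskers (SD) are drawn for the groups of 3. Srsf4 bin 7 lies higher in the SF3a1 siRNA libraries than in the controls with and without LPS, and Srsf5 bins 23 and 24 lie lower in the SF3a1 siRNA libraries without LPS.

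Taken over all noncoding bins that lie inside its coding introns, 7 bins of 1304 bases in sum, Srsf4 gave 6.25, 3.3 and 3.35% of bin counts with control siRNA and 7.65, 9.59 and 8.2% with SF3a1 siRNA without LPS. With LPS the shares were 4.51 and 5.48% in control cells and 6.93, 7.42 and 8.27% in SF3a1 siRNA cells. The siRNA groups did not overlap in either setting, and per base the mean density of these bins without LPS was 7.81 ± 3.20% of that of the coding bins with control siRNA and 16.1 ± 2.11% with SF3a1 siRNA (SD, n = 3 each). Srsf10 gave 2.88, 3.38 and 3.96% against 3.61, 6.99 and 5.04% without LPS and 2.16 and 3.17% against 2.44, 5.55 and 5.56% with LPS, which overlapped in both. The 1 such bin of Srsf1 held 0.0827 to 0.262% in the 11 libraries, and its siRNA groups overlapped in both settings. In Srsf2 the order was the other way, with 3.85, 4.16 and 5.02% in control cells and 1.9, 3.06 and 3.49% with SF3a1 siRNA without LPS. With LPS Srsf2 gave 2.11 and 2.97% against 1.87, 2.6 and 2.45%, which overlapped. These sums are descriptions that were not tested, and they were not computed for genes outside the family. Reads that were counted on no annotated gene include intronic reads. They made up 18.2, 19.6 and 17.8% of reads with control siRNA and 27.2, 21.6 and 20.8% with SF3a1 siRNA without LPS. With LPS the siRNA groups overlapped, at 19.8, 19.3 and 17.8% with control siRNA and 19.9, 18.2 and 21.4% with SF3a1 siRNA. The part of these reads in the intronic bins was not tested.

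**Figure D3:**
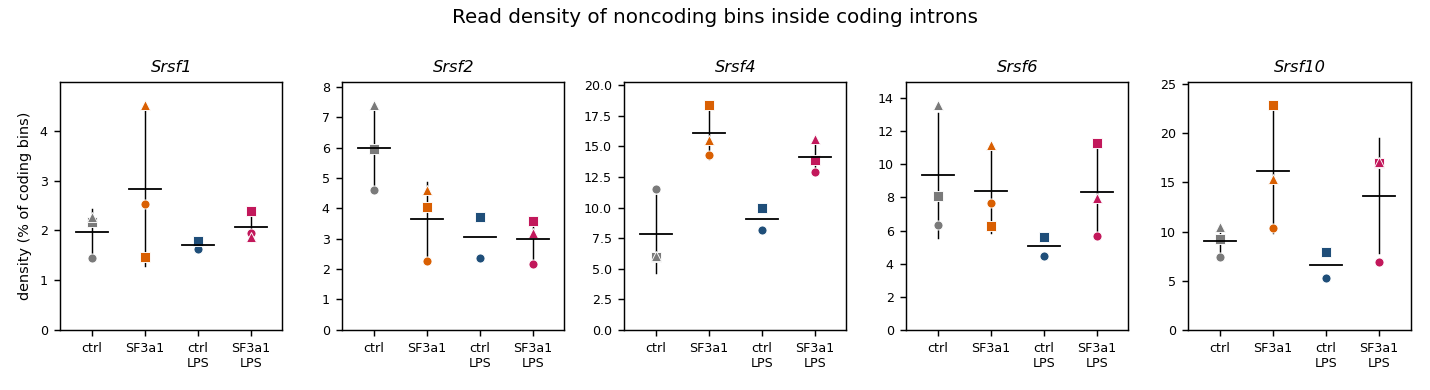
Read density (counts per base, in percent of the density of the same gene's coding bins) of noncoding bins that lie inside coding introns of Srsf1, Srsf2, Srsf4, Srsf6 and Srsf10, in 11 libraries. Circles, squares and triangles are replicates 1, 2 and 3, bars are means and whiskers the SD of the groups of 3. In Srsf4 all SF3a1 siRNA libraries lie above all control libraries of the same LPS setting.

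Srsf5, also called SRp40, was the other gene with a call. Its bin 23 took 0.9, 0.924 and 1.79% with control siRNA and 0.283, 0.621 and 0.312% with SF3a1 siRNA without LPS, without overlap, at a log2 usage change of -1.63 (SE 0.465, edgeR diffSpliceDGE adjusted p = 0.0923). It was not called with the replicate block (adjusted p = 0.127), without the filter on low counts (0.106), at a minimum count of 30 (0.142), by the DEXSeq model (0.16), by limma-voom (0.206) or without replicate 1 of every group (0.247). On leaving out single libraries it was called without replicate 1 of control siRNA without LPS or replicate 1 or 2 of SF3a1 siRNA with LPS, and lost without any of the other 8, where the adjusted p ran from 0.101 to 1. The lost calls include replicate 3 of control siRNA without LPS, whose omission moved the log2 usage change to -1.19. The neighbouring bin 24, a larger share of the gene, took 9.2, 9.93 and 11.5% against 4.46, 5.04 and 5.34% without overlap. Its log2 usage change was -1.05 (SE 0.311) and missed the threshold at an edgeR diffSpliceDGE adjusted p of 0.135. The replicate block (-1.06, adjusted p = 0.00448), the DEXSeq model (-1.13, adjusted p = 0.0078) and limma-voom (adjusted p = 0.047) called it. With LPS bin 24 took 5.18 and 7.45% in control cells and 3.42, 5.66 and 5.34% in SF3a1 siRNA cells, which overlapped. Bin 11 of Srsf5 took 2.05, 1.1 and 1.08% against 2.21, 2.9 and 3.29% without LPS and 1.89 and 1.27% against 2.01, 3.36 and 3.68% with LPS, higher without overlap in both, at log2 usage changes of 1.01 and 0.91 (edgeR diffSpliceDGE adjusted p = 0.371 and 0.917). Without replicate 1 of every group it was called without LPS (1.51, adjusted p = 0.0231). Bins 11 and 24 were picked after their values had been seen, and the coordinates of Srsf5 bins were not set here.

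**Figure D4:**
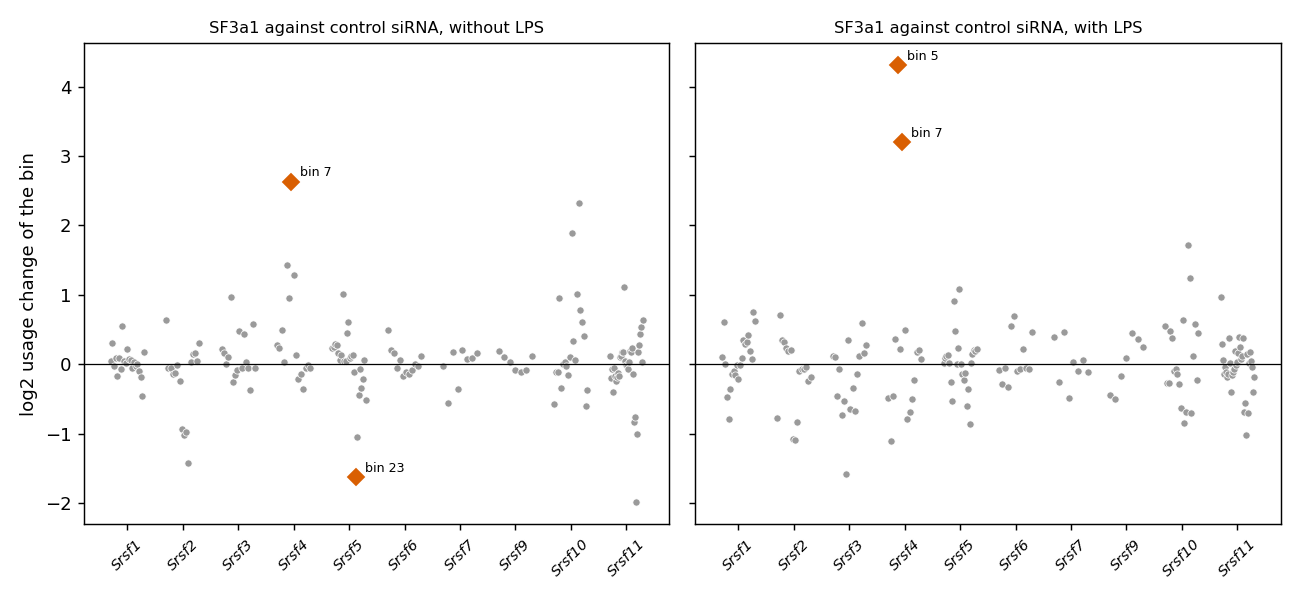
Log2 usage change of each of the 173 tested bins of the 10 genes, SF3a1 against control siRNA, without LPS (left) and with LPS (right), with bins ordered by number within a gene. Orange diamonds are bins called at a false discovery rate of 0.1 and grey points are bins not called. Srsf4 bin 7 is called in both panels, Srsf5 bin 23 in the left and Srsf4 bin 5 in the right.

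In Srsf2, bins 8 to 12 fill the intron at chr11:116850962-116852020 on the minus strand, which an annotated retained-intron transcript covers. Bin 11, the 104 bases at chr11:116851648-116851751, is also an internal exon of an NMD transcript and so a poison exon among the transcripts used to rebuild the bins. GENCODE vM21 holds this exon in the untranslated part of a protein-coding transcript as well, a later entry that was not among them. Bin 8, the longest of them, took 1.64, 2.36 and 2.54% with control siRNA and 1.23, 2.11 and 2.18% with SF3a1 siRNA without LPS, and 1.26 and 1.57% against 1.21, 1.84 and 1.73% with LPS. The siRNA groups overlapped in both, at log2 usage changes of -0.24 and 0.20 (edgeR diffSpliceDGE adjusted p = 1 for each). Bin 12 took 0.891, 0.742 and 1.35% with control siRNA and 0.2, 0.427 and 0.483% with SF3a1 siRNA without LPS, without overlap, at -1.43 (SE 0.441, edgeR diffSpliceDGE adjusted p = 0.19). It was called with the replicate block (-1.48, adjusted p = 0.00185) and by the DEXSeq model (-1.48, adjusted p = 0.0527). With LPS its share was 0.289 and 0.436% in control cells and 0.234, 0.331 and 0.44% in SF3a1 siRNA cells, which overlapped. Bin 11 took 0.418, 0.375 and 0.478% with control siRNA and 0.164, 0.178 and 0.322% with SF3a1 siRNA without LPS, and 0.225 and 0.29% against 0.138, 0.15 and 0.147% with LPS. Bins 9, 10 and 11 were lower without overlap both without and with LPS, at log2 usage changes of -0.94, -1.02 and -0.98 without LPS and of -1.08, -1.09 and -0.84 with LPS, none of which was called. Bins 8 to 12 were picked after their values had been seen. The retained intron bin of highest usage in Srsf2, bin 6, lies inside the last exon of its protein-coding transcript. It took 13.8, 14 and 15.5% against 14.1, 12.9 and 12.9% without LPS, which overlapped. Its mean density per base without LPS was 41.7% (SD 6.82) of that of the coding bins with control siRNA and 35.9% (SD 0.538) with SF3a1 siRNA. With LPS the order was reversed, at 29.4% (SD 0.797) in the 2 control libraries and 37.1% (SD 5.08) with SF3a1 siRNA.

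The poison exon of Srsf6 had its TAG stop in bin 5, which a protein-coding transcript also contains, and bin 6 was its part outside coding transcripts. Bin 6 took 0.434, 0.521 and 0.872% with control siRNA and 0.506, 0.396 and 0.725% with SF3a1 siRNA without LPS, which overlapped, at a log2 usage change of -0.17 (edgeR diffSpliceDGE adjusted p = 1). With LPS it took 0.308 and 0.365% in control cells and 0.366, 0.734 and 0.509% in SF3a1 siRNA cells, which did not overlap, at 0.69 (edgeR diffSpliceDGE adjusted p = 1). For Srsf1, the retained intron bin of highest usage, bin 12, is also part of exons of protein-coding transcripts. It held 11, 11.9 and 12.2% with control siRNA and 11, 13.4 and 12.7% with SF3a1 siRNA without LPS.

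In Srsf10 the internal noncoding exon bin of highest usage, bin 8, took 1.8, 2.62 and 2.19% with control siRNA and 1.45, 2.53 and 1.32% with SF3a1 siRNA without LPS. With LPS it took 0.845 and 1.34% against 0.718, 1.51 and 1.83%. The groups overlapped in both settings, and the fitted changes of -0.34 and 0.37 had opposite signs (edgeR diffSpliceDGE adjusted p = 1 for each). Bins of the alternative last exons of Srsf10 stood in opposite order. The last exon of the short protein-coding isoforms starts with bins 20 and 21, whose usage is not given here. Its longest bin, bin 22 at chr4:135863870-135865815, took 17.2, 21.3 and 21.2% with control siRNA and 27.4, 24.5 and 27.1% with SF3a1 siRNA without LPS. With LPS it took 16.9 and 20% against 26.7, 27.9 and 27.7%. Bin 23 at chr4:135867126-135868382, of the long isoforms, took 20.6, 18.8 and 18.5% against 11.4, 14 and 12.9% without LPS and 16.1 and 19% against 15.3, 14.7 and 14.6% with LPS. Neither overlapped in either setting, and diffSpliceDGE called neither, at 0.41 and -0.60 without LPS and 0.59 and -0.23 with LPS. The DEXSeq model called bin 23 without LPS (-0.72, adjusted p = 0.0298) and bin 22 with LPS (0.76, adjusted p = 0.0893). Bins 22 and 23 were picked after their values had been seen.

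Usage was higher with SF3a1 siRNA without overlap both without and with LPS in 3 of the 173 member bins, Srsf4 bin 7, Srsf5 bin 11 and Srsf10 bin 22, against 1.92% of all tested bins. It was lower in both in 6 bins, against 1.35% of all tested bins: Srsf2 bins 9, 10 and 11, Srsf7 bin 4, Srsf10 bin 23 and Srsf11 bin 35. Srsf7 bin 4, a coding bin, took 18.3, 15 and 15.6% against 13.4, 11.1 and 13.2% without LPS. Srsf11 bin 35 took 1.1, 1.05 and 1.54% against 0.691, 0.527 and 0.633% without LPS and 0.676 and 0.928% against 0.253, 0.611 and 0.618% with LPS. Srsf7 bin 4 and Srsf11 bin 35 were picked after their values had been seen. Bins of 1 gene share its reads, so that these are not independent items. In the LPS comparison of control cells 0 member bins were called by diffSpliceDGE, limma-voom or the DEXSeq model, with 6 at an unadjusted p under 0.05, where 0.0794% of all bins were called and 3013 of the 153624 had an unadjusted p under 0.05. In SF3a1 siRNA cells LPS gave 0 by the same tools with 2 unadjusted, where 0.0254% of all bins were called and 1966 passed unadjusted. The interaction gave 0 by the same tools with 4 unadjusted, among all bins of which 0% were called by diffSpliceDGE and 2054 passed unadjusted.

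Of the enzymes that phosphorylate and import SR proteins, 9 of 10 listed genes were tested. Without LPS 1 was called higher and 1 lower, where 33.8% of all genes were called, and with LPS 2 higher and 1 lower, where 38.8% were called. Their median log2 fold change was -0.178 without LPS and -0.136 with LPS. Srpk1, the cytoplasmic SR protein kinase that prepares SR proteins for import into the nucleus, had the lowest adjusted p. It was at 131, 131.6 and 123 CPM with control siRNA and at 46.99, 48.71 and 56.02 CPM with SF3a1 siRNA without LPS, a log2 fold change of -1.35 (SE 0.138, edgeR adjusted p = 4.87e-05). With LPS it fell from 100.5, 110.7 and 90.82 CPM to 41.91, 49.21 and 52.75 CPM, at -1.07 (SE 0.137, edgeR adjusted p = 0.000141). No SF3a1 siRNA library reached any control library. Clk4, a nuclear kinase of SR proteins, rose from 23.41, 22.3 and 28.19 CPM to 36.06, 38.96 and 37.72 CPM without LPS (0.61, SE 0.17, edgeR adjusted p = 0.0182). With LPS it rose from 22.66, 27.74 and 33.83 CPM to 54.5, 61.12 and 47.5 CPM (0.96, SE 0.17, edgeR adjusted p = 0.00117). Dyrk1a, a kinase of SR proteins and other substrates, was called with LPS, at 51.55, 49.76 and 39.94 CPM against 76.3, 60.69 and 73.01 CPM (0.57, edgeR adjusted p = 0.0109).

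Among 25 SR-related proteins and partners 24 were tested, and 6 were called higher and 4 lower without LPS, and 7 higher and 4 lower with LPS, beside the same 33.8 and 38.8% of all genes. Bclaf1, an arginine-serine protein linked to transcription and splicing, fell from 184, 212.4 and 209.4 CPM to 108.2, 116 and 112 CPM without LPS (-0.85, SE 0.131, edgeR adjusted p = 0.000545) and at -0.82 with LPS (edgeR adjusted p = 0.000566). Rbm39, a U2AF-like splicing factor, rose from 203.1, 211.1 and 219.4 CPM to 310.4, 394.2 and 379.4 CPM without LPS (0.77, SE 0.133, edgeR adjusted p = 0.00108) and at 0.61 with LPS (edgeR adjusted p = 0.00392). Luc7l, a homologue of a yeast U1 snRNP subunit, went from 131.1, 118.7 and 118.6 CPM to 198.6, 218.5 and 177.8 CPM with LPS (0.69, SE 0.122, edgeR adjusted p = 0.00111), and it was called without LPS at 0.45 (edgeR adjusted p = 0.0155). The median over the list was 0.063 without LPS and 0.15 with LPS. Both directions were present in this list in either setting.

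The nonsense-mediated decay and exon junction factors matter for reading poison exons, since they remove the transcripts that contain them. Of 15 genes all were tested, with 2 called higher and 2 lower without LPS, and 2 higher and 3 lower with LPS, again beside 33.8 and 38.8% of all genes. Upf3b, which links the exon junction complex to the decay machinery, was at 26.43, 34.85 and 33.77 CPM with control siRNA and at 10.54, 8.639 and 8.034 CPM with SF3a1 siRNA without LPS, a log2 fold change of -1.80 (SE 0.196, edgeR adjusted p = 7.1e-05). With LPS it also fell, at -1.80 (SE 0.197, edgeR adjusted p = 5.78e-05). Its paralogue Upf3a fell from 33.36, 39.72 and 39.43 CPM to 24.68, 20.34 and 21.57 CPM without LPS (-0.75, edgeR adjusted p = 0.00223) and at -0.70 with LPS (edgeR adjusted p = 0.00291). Smg8, a regulator of the kinase SMG1, rose from 40.49, 45.13 and 38.62 CPM to 65.55, 63.54 and 64.72 CPM without LPS (0.64, edgeR adjusted p = 0.00326) and at 0.52 with LPS (edgeR adjusted p = 0.00983). The median over the list was -0.0991 without LPS and -0.03 with LPS, and the part of these factors in the usage of poison exons was not tested.

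**Figure D5:**
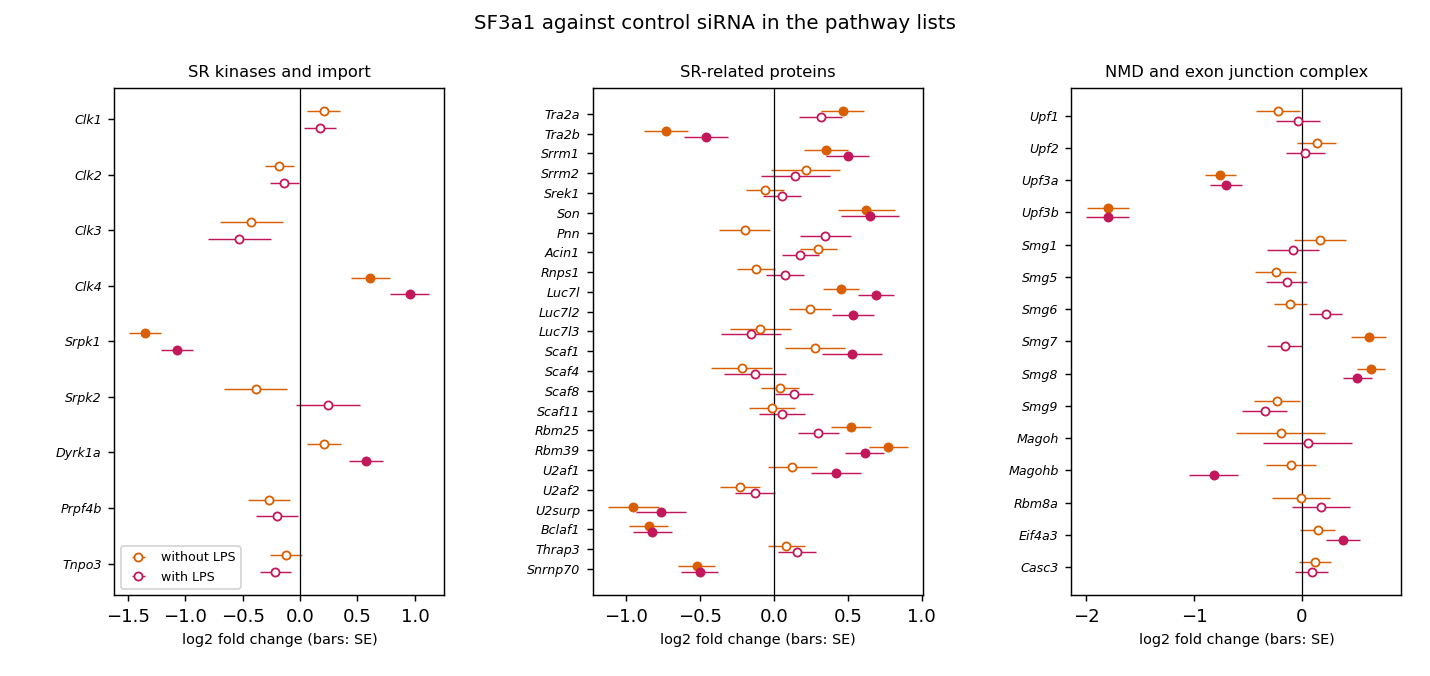
Log2 fold change of each tested gene of the 3 pathway lists, SF3a1 against control siRNA without LPS (orange) and with LPS (magenta), with bars of 1 SE. Filled points are genes called at a false discovery rate of 0.1. Srpk1 and Upf3b lie farthest to the left in their panels in both settings.

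For the 3 members with the smallest adjusted p in a SF3a1 comparison, the gene outside the family whose log2 CPM ran most alike over the 12 libraries was Gm5643 for Srsf2 (Pearson r = 0.959), Prpsap1 for Srsf4 (0.902) and Prpsap2 for Srsf10 (0.931). These correlations are over libraries of 4 groups that share treatment and replicate number, and they are descriptions. Within the family, Srsf3 and Srsf7 ran most alike (r = 0.92) and Srsf10 and Srsf11 least alike (r = -0.68) over the same 12 libraries.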

How the data were processed

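Polyadenylated RNA of 12 RAW264.7 libraries was measured, 3 per group as the sample labels give them. The authors ran single-end sequencing on an Ion Proton instrument, discarded reads under 30 nt, used GSNAP to place reads uniquely on mm10 and counted them on an Ensembl annotation with htseq-count and with the counting script of DEXSeq. The deposited counts per gene and per exon bin are not normalized. Whether counting used the strand is not given in the sources used here, so genes that overlap another on the opposite strand are uncertain. Per the study's methods each treatment was carried out in triplicate, and p-values measure the spread between these triplicates of 1 cell line.

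Gene counts were tested with edgeR 4.0.16 (R 4.3.3, TMM, filterByExpr, quasi-likelihood test, 1 mean per group over 12 libraries) and bins with diffSpliceDGE over 11 libraries, with Benjamini-Hochberg adjustment over all features and calls at 0.1. CPM are TMM-scaled, and SEs are the fold change divided by the root of F. The alternatives used DESeq2 1.42.0 and limma 3.58.1. Samples with the same replicate number deviated together (correlation of deviations from the group mean 0.14 to 0.68 for 18 pairs, above 0.1 in each, against -0.61 to 0.45 with a median of -0.375 for 36 pairs of different number, of which 11 were above 0.1), so the number pairs the samples. The block is printed where it changes a call of a member gene or member bin, and not for the pathway lists. On leaving out single libraries, SF3a1 against control siRNA called 8 to 11 SR-related genes without LPS and 8 to 13 with LPS. For the kinase list the counts were 2 and 3 to 4, and for the decay list 4 and 4 to 5. No pair of replicates agreed within sampling noise. Bins of 6 genes (98 bins) were given mm10 coordinates from GENCODE vM21, from its transcripts numbered under 182000, the limit at which rebuilt bins matched in number for most genes (85.7% of 23786). They were given where the rebuilt bins of the gene matched in number and coding bins held reads at over 0.1 of the mean coding density, limits that were set after the densities had been seen. Bins of Srsf3, Srsf5, Srsf9 and Srsf11 (104) have none. On data simulated for SF3a1 against control siRNA without LPS, the gene step recovered 40.2% of 199 changes of 2-fold (14793 genes), with 14.9% of its calls in unchanged genes. The bin step recovered 53% of 100 changes of 4-fold and 2.02% of 99 of 2-fold (149558 bins), with 39.7% of its calls in unchanged genes. The simulation changed a smaller share of genes and bins than was called in the data (33.8% of genes and 0.624% of bins). Its shares therefore do not carry over as they stand. Calls near the threshold, of bins above all, are still read as less certain than their adjusted p.

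The text names Sf3a1, the 10 members and each member bin called. Up to 3 genes per pathway list with the smallest adjusted p are named, and the gene most like each of 3 members. It also names the poison exon and retained intron bin of highest mean usage in members where such bins were classed. The bins of Srsf3, Srsf5, Srsf9 and Srsf11 had no coordinates and were not classed, and Srsf7 had coding bins only. Other bins were named after their values had been seen, as stated beside them. A poison exon bin lies in an internal exon inside an intron of a protein-coding transcript and in no exon of such a transcript. The retained intron bin of 1 member is not reported here. The members and lists were chosen with earlier results of these data known. Intervals cover counting error only.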

Additional observations from a re-analysis of the deposited data

Results flagged for a closer look

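Reads counted on no annotated gene, intronic reads among them, enter none of the comparisons. They were a larger share of all reads in the SF3a1 siRNA libraries without LPS than in the 3 control libraries without LPS. They made up 27.2% in replicate 1, 21.6% in replicate 2 and 20.8% in replicate 3 with SF3a1 siRNA, against 18.2, 19.6 and 17.8% with control siRNA, and this was not tested. With LPS the shares overlapped, at 19.9, 18.2 and 21.4% with SF3a1 siRNA and 19.8, 19.3 and 17.8% with control siRNA.

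The SF3a1 effect on the macrophage marker Fcgr1, a high-affinity receptor for IgG, differed with LPS by -2.825 on the log2 scale (edgeR interaction, adjusted p = 0.00149). Fcgr1 was at 564.7, 381.8 and 420.7 CPM in control cells with LPS and at 52.5, 39.78 and 56.12 CPM in SF3a1 siRNA cells with LPS, while without LPS the 2 groups held 51.26, 73.77 and 67.41 CPM and 37.59, 56.46 and 54.16 CPM.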

How the results depend on the processing

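Depth limits the exon results, since the called Srsf4 bins held 0 to 24 reads per library. In SF3a1 against control siRNA without LPS, 5 Srsf genes were called in the reported fit, 7 with the replicate block, 6 by DESeq2, 4 with RLE size factors (Srsf2, Srsf4 and Srsf10 lower, Srsf11 higher) and 2 without the filter on low counts (Srsf2 and Srsf7, both lower). Leaving out single libraries gave 0 to 5. With LPS the reported 0 became 1 with the block and 1 by DESeq2, and 0 to 1 on leaving out libraries. LPS in control cells gave 1 with the block, and LPS in SF3a1 siRNA cells gave 1 with the block and 1 without replicate 1 of every group, an alternative chosen after seeing the data. For the 2 and 2 Srsf bins called without and with LPS, the counts were 3 and 0 with the block, 5 and 1 by the DEXSeq model, 2 and 0 by limma-voom, 1 and 1 without filter, and 0 and 0 at a minimum count of 30. Without replicate 1 of every group the count without LPS was 3, while with LPS that fit left 1 control library and is not counted. On leaving out single libraries the counts were 0 to 4 and 0 to 2, and 0 to 1 for LPS in control cells.

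Over all bins, LPS in control cells called 122 in the reported fit, 280 with the block, 184 by the DEXSeq model and 50 to 155 on leaving out libraries. SF3a1 without LPS called 959, against 2097, 1505 and 519 to 1119 in that order, and 1479 without replicate 1 of every group. SF3a1 with LPS called 753, against 1783, 1301 and 100 to 876. LPS in SF3a1 siRNA cells called 39, against 99 and 63, and 21 by limma-voom. The interaction called 0, against 2 and 4, 1 by limma-voom, 2 without replicate 1 of every group and 0 to 3 on leaving out libraries. Over all genes, the interaction called 520, against 1756 with the block, 966 by DESeq2, 930 without filter, 1012 without replicate 1 of every group and 273 to 711 on leaving out libraries. LPS in SF3a1 siRNA cells called 1598 genes, 3115 with the block and 1050 to 2005 on leaving out libraries.

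Effects near 0 changed sign. Srsf9 without LPS was 0.0314 with RLE size factors and 0.0317 by DESeq2, Srsf1 with LPS was -0.00151 without replicate 1 of every group, and Srsf10 with LPS was 0.018 when only the 2 groups were fitted. On leaving out libraries Srsf3 and Srsf9 without LPS ran from -0.193 to 0.0669 and from -0.0511 to 0.121. With LPS, Srsf1 ran from -0.0205 to 0.0883, Srsf3 from -0.153 to 0.232, Srsf5 from -0.0434 to 0.189, Srsf7 from -0.33 to 0.134 and Srsf10 from -0.0973 to 0.056. The causes were not tested. Of the other settings for single genes and bins, 105 kept direction and side of the threshold, 18 lost a call and 12 gained one.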
